A study of Mus musculus with 4 samples.

Results

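The genes described here are the insulin-like growth factor binding protein genes Igfbp1 to Igfbp7 and the receptor gene Igf1r, 8 of the 18820 genes compared. They were taken by symbol, each from the probe set annotated to that gene alone; each had 1 such probe set, so none was chosen among several. The set was picked because Igfbp genes were higher in the Trim28 knockout, so their differences between the groups are given as a description, with no test. The study asked how Trim28, also called KAP1 or TIF1beta, acts with the Polycomb protein Rnf2 on differentiation and pluripotency genes in mouse embryonic stem cells. Each sample's total RNA was read on its own whole-transcript array (Affymetrix Mouse Gene ST). The KAP_KO group has 2 biological replicates of KAP1 fl/fl cells, described as knockout, and the KAP_WT group has 2 biological replicates of wild-type cells. All 4 samples are labelled with 4-OH-tamoxifen, the inducer of the deletion, so the controls carry it too, although the protocol also names an ethanol vehicle. All cells grew on irradiated mouse embryonic fibroblasts. The Cre transgene, the clones used and whether both groups derive from the same line are not stated in the labels. The design text describes a comparison of before with after the conditional deletion, which would be within a single line, while the sample labels give a wild-type genotype with tamoxifen. If the lines differ, that difference and the loss of Trim28 cannot be told apart.

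Insulin-like growth factors (IGFs) are secreted peptides that act through the receptor tyrosine kinase encoded by Igf1r, which signals through insulin receptor substrates, phosphoinositide 3-kinase and AKT. The binding proteins are secreted too. They hold IGFs outside the cell, lengthen their life in the circulation and, depending on the protein and on proteases that cleave it, limit or help their access to the receptor. Several also bind matrix or cell surface directly. In embryonic stem cell cultures, IGFs and insulin promote survival and growth, and fibroblasts used as feeders are themselves known to secrete binding proteins.

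The arrays of a group resembled each other more than those of the other group, with Pearson's r over all probe sets of 0.995 within KAP_KO, 0.994 within KAP_WT and 0.974 to 0.976 across. These are correlations across probe sets, which are not independent replicates. Trim28 read 8.97 and 8.92 in KAP_KO, against 11.29 and 11.37 in KAP_WT, a difference of -2.38 on the log2 scale (limma adjusted p = 3.39e-05). Values are log2 RMA expression, on which 1 unit is a doubling. The number of arrays, 2 in each group, limits the precision. Where a test is given without 1 sample, that group is left with 1 array, and its spread is taken to be that of the other group and of all genes. Probe sets differ in how strongly they bind, so levels are compared between groups for the same gene and not between genes. Bulk RNA cannot tell fewer cells of a type apart from less RNA per cell.

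Of the 7 Igfbp genes, 6 had a higher mean in KAP_KO, but the family split into 2 genes with very large differences, 1 intermediate gene and 4 with differences under 0.5. The large ones were Igfbp3 and Igfbp4. Igf1r was also higher, by more than 2-fold. The median difference over the 8 genes was 0.71, beside -0.05 over all genes tested.

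Igfbp3 encodes the main carrier of IGFs in serum, which forms a complex with the acid-labile subunit. It read 9.30 and 9.52 in KAP_KO, against 6.31 and 6.39 in KAP_WT. Both knockout arrays were high, with nearly 3 units between the lowest of them and the highest wild-type array (2.92). The means were 9.41 ± 0.16 in KAP_KO and 6.35 ± 0.06 in KAP_WT (SD, n = 2 each), a difference of 3.07 and an 8.37-fold higher array value. In the order of all 18820 differences, the highest first, it stood at place 39.

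Igfbp4 encodes a binding protein that mostly inhibits IGF action until the protease pappalysin cleaves it. Its values were 8.35 and 8.48 in KAP_KO, against 5.76 and 5.42 in KAP_WT. Again the groups lay far apart, and the wild-type arrays differed more from each other than the knockout arrays did. The means of 8.41 ± 0.10 in KAP_KO and 5.59 ± 0.24 in KAP_WT differed by 2.82, a 7.08-fold higher value, at place 60 in the same order.

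Igfbp7 encodes a distant relative of low IGF affinity that is deposited in vascular and stromal matrix. It gave 7.99 and 7.35 in KAP_KO, against 7.02 and 6.42 in KAP_WT. Here the arrays within a group were spread widely, with replicate 1 above replicate 2 in both groups. The groups did not overlap, but the lowest knockout array was only 0.33 above the highest wild-type array. Means were 7.67 ± 0.45 in KAP_KO and 6.72 ± 0.42 in KAP_WT, a difference of 0.95 (1.93-fold). Without KAP_KO replicate 1 the difference was 0.63, and with 1 array left out at a time it ranged up to 1.27.

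The other Igfbp genes moved little. Igfbp5, whose product binds bone and other matrix, read 5.12 and 5.05 in KAP_KO, against 4.65 and 4.58 in KAP_WT, a difference of 0.47 (1.38-fold). Both groups were tight, with SDs of 0.05 in each. Igfbp2, whose product is prominent in fetal tissues and carries an integrin-binding motif, read 10.02 and 10.26 in KAP_KO, against 9.78 and 9.80 in KAP_WT. The difference was 0.35 (1.28-fold), and it was 0.23 without KAP_KO replicate 2. Igfbp2 thus had high array values in both groups with a small step between them. Igfbp6, which encodes a binding protein that prefers IGF2, read 4.35 and 4.57 in KAP_KO, against 4.27 and 4.14 in KAP_WT. Its difference of 0.26 (1.19-fold) was 0.14 without KAP_KO replicate 2, and the nearest arrays of the groups were 0.08 apart.

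Igfbp1 went the other way. It encodes a binding protein of liver and decidua whose transcription insulin represses. It read 3.53 in both KAP_KO arrays, against 3.59 and 3.65 in KAP_WT, a difference of -0.09. It was the 1 gene of the 8 whose mean lay below 3.80, the lower quartile of mean levels over all genes tested. Whether it was above background is not known, since no detection calls were used here.

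Igf1r, the receptor itself, read 8.72 and 8.70 in KAP_KO, against 7.59 and 7.39 in KAP_WT. Both knockout arrays stood more than 1 unit above both wild-type arrays. The means were 8.71 ± 0.01 in KAP_KO and 7.49 ± 0.14 in KAP_WT, a difference of 1.22 and a 2.33-fold higher value. Its difference stood at place 587 of 18820, so 3.11% of genes had a higher one.

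**Figure D1:**
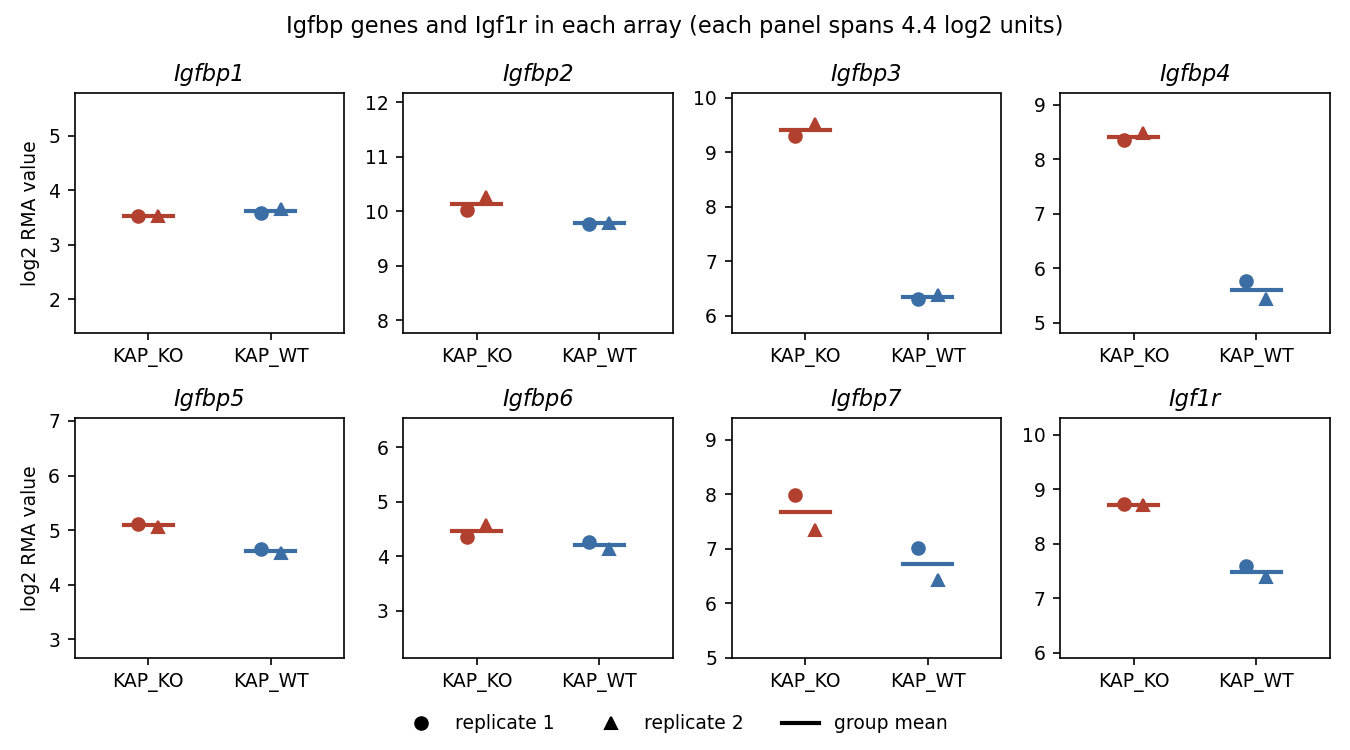
Log2 RMA values of the 7 Igfbp genes and Igf1r on each array, KAP_KO left and KAP_WT right in every panel, with replicates as points and the group mean as a bar. Panels span the same number of log2 units, so that the steps of Igfbp3 (3.07), Igfbp4 (2.82) and Igf1r (1.22) can be set against the near-level panels of Igfbp1, Igfbp2, Igfbp5 and Igfbp6.

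Across the whole table, 5071 of 18820 genes (26.9%) passed a limma adjusted p of 0.05, and 14.2% were higher in KAP_KO and 12.7% lower. Of the 8 genes, 5 were among the higher calls, namely Igfbp3, Igfbp4, Igfbp5, Igfbp7 and Igf1r, and 0 among the lower. A difference of at least 2-fold upwards was seen for 3 of the 8 and for 4.45% of all genes. The groups did not overlap for any of the 8, with 7 higher and 1 lower in KAP_KO, beside 26.6% and 38.6% of all genes. Since the genes were picked on this contrast, nothing is read from these counts. Subtracting each array's median over the tested genes lowers every difference by 0.17. On that scale Igfbp3 was at 2.90, Igfbp4 at 2.65, Igf1r at 1.05 and Igfbp7 at 0.78, while Igfbp5 was at 0.30, Igfbp2 at 0.18, Igfbp6 at 0.09 and Igfbp1 at -0.26.

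**Figure D2:**
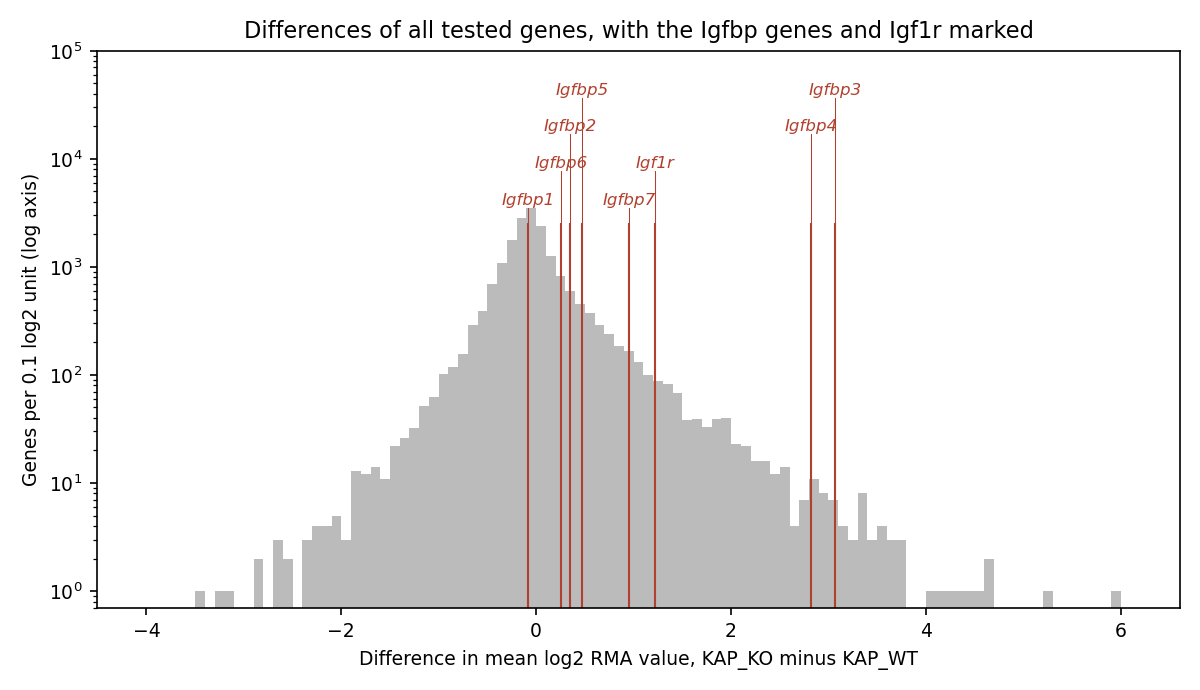
Number of genes (log axis) by the difference in mean log2 RMA value, KAP_KO minus KAP_WT, in bins of 0.1, with lines for the 7 Igfbp genes and Igf1r. Igfbp3 and Igfbp4 lie in the far right tail, Igf1r and Igfbp7 on the right shoulder and the other 4 near the bulk of genes.

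The Igfbp genes lie in part side by side, which allows a comparison of neighbours. Igfbp1 and Igfbp3 are neighbours on chromosome 11, and Igfbp2 and Igfbp5 on chromosome 1, with 0 tested genes between the members of each pair in the GRCm38.p6 annotation. The first pair differed sharply, with Igfbp3 at 3.07 and Igfbp1 at -0.09. Beyond it, the nearest tested named genes were Adcy1, an adenylyl cyclase gene, with a difference of -0.02 (limma adjusted p = 0.930), and Tns3, which encodes the adhesion protein tensin. Tns3 fell, with 8.83 and 8.80 in KAP_KO against 9.56 and 9.49 in KAP_WT (difference -0.71, limma adjusted p = 0.00188). None of these neighbours of Igfbp3 was higher in KAP_KO. Around Igfbp2 (0.35) and Igfbp5 (0.47), Ankar had a difference of -0.12 (limma adjusted p = 0.541) and Tnp1, a spermatid nuclear protein gene, one of -0.08 (limma adjusted p = 0.608).

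The bases before the transcription start are shown for Igfbp3 and Igfbp4, which had the largest differences, for Igfbp1, the neighbour of Igfbp3 without one, and for Igf1r. RefSeq promoter sequences (GRCm38.p6) were matched for all 8 genes, with 9 starts since Igfbp2 has 2. Each run below is the 250 bases before the start, 5′ to 3′ on the strand of the gene, and capitals mark a match on either strand to TATAAA (the TATA box), GGGCGG (the GC box bound by Sp1) or CAAAACA (the core of the insulin response sequence known from IGFBP1). None of these motifs overlaps another in the runs shown.
Igfbp3, chr11:7213924-7214173, minus strand: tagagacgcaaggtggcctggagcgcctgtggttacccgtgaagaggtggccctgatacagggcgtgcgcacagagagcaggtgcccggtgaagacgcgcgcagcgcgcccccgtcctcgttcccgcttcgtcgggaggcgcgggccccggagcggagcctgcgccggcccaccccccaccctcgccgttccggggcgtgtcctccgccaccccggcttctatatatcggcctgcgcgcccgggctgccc
Igfbp4, chr11:99040994-99041243, plus strand: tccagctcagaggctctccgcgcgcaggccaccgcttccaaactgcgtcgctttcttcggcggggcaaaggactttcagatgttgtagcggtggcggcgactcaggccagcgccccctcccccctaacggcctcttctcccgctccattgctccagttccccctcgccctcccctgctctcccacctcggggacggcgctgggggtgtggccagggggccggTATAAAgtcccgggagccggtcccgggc
Igfbp1, chr11:7197537-7197786, plus strand: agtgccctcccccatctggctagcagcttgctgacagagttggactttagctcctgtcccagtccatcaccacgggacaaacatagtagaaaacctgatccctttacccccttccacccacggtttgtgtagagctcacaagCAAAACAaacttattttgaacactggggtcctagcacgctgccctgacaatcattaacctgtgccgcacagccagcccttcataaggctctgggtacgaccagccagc
Igf1r, chr7:67952007-67952256, plus strand: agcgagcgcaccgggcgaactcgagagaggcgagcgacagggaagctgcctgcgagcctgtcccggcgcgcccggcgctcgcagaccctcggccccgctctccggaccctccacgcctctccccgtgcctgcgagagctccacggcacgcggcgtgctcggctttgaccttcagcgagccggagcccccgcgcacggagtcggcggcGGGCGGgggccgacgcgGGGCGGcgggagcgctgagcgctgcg

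TATAAA was found in Igfbp4, where it begins 28 bases before the start. In Igfbp6 the match is on the opposite strand, as TTTATA, and begins 148 bases before the start. Of 32851 RefSeq promoter windows of this length, 12.4% hold TATAAA on either strand. The run before Igfbp3 has no exact match to any of the 3 motifs. It holds tatatat near its end, a TATA-like stretch that the search for exact letters did not cover. Igfbp1 alone of the 8 genes holds CAAAACA, which begins 108 bases before its start and is present in 5.56% of windows. GGGCGG occurs 4 times before Igfbp7, 3 times before 1 start of Igfbp2 and 2 times before Igf1r, and in 32.7% of windows. A match describes letters in a window only.

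The windows differed more clearly in CpG dinucleotides, counted after the differences were known. The 4 genes with the largest differences had the most, with 42 before Igf1r, 32 before Igfbp3, 26 before Igfbp7 and 22 before Igfbp4. The other genes had between 5 (Igfbp1) and 14 (1 start of Igfbp2), beside a median of 6 over all windows. These are 8 points from the same arrays, picked in part for their differences, and no test was made. The same split could be made for 14749 of the tested genes, those with a promoter window. Of 4227 genes with at least 20 CpG before a start, 5.30% were at least 2-fold higher in KAP_KO, with a median difference of -0.02, beside 3.90% of 10522 genes with fewer and a median of -0.06. In limma 18.9% of the genes with at least 20 CpG were higher in KAP_KO, and 11.9% of those with fewer. The limit of 20 lies between the counts of the Igfbp genes themselves, above 14 and below 22. The share lower in KAP_KO and the expression level were not compared across this split, so no link of CpG to a rise is read from it.

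**Figure D3:**
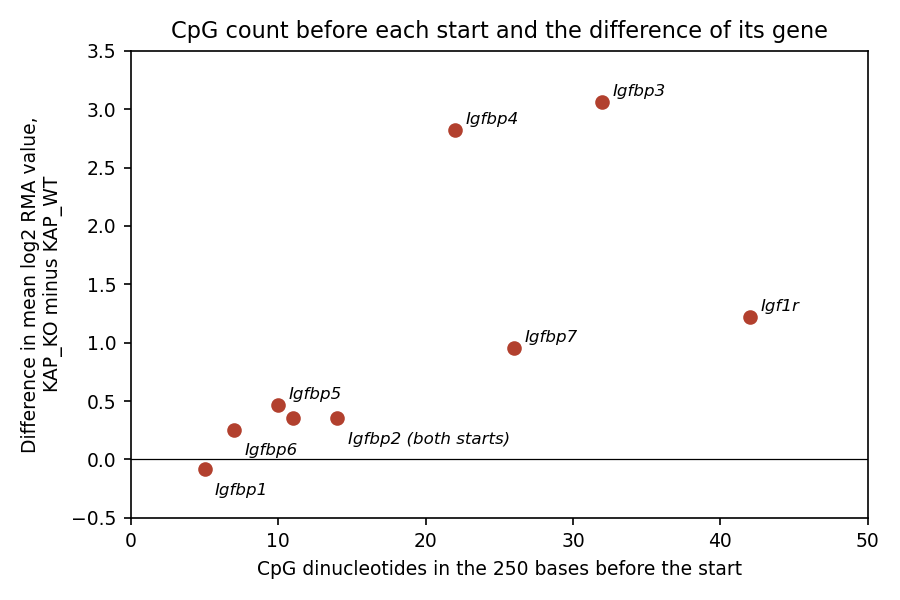
Difference in mean log2 RMA value, KAP_KO minus KAP_WT, against the number of CpG dinucleotides in the 250 bases before each start, 1 point per start. Igfbp4, Igfbp7, Igfbp3 and Igf1r lie at 22 to 42 CpG with differences of 0.95 or more, and the other starts at 5 to 14 CpG with differences under 0.5.

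The rest of the IGF pathway, which the choice of the 8 genes did not use, was read from a list of 67 genes, of which 61 were tested. In limma 18 were higher and 8 lower in KAP_KO, that is, 29.5% and 13.1% beside 14.2% and 12.7% of all genes, with a median difference of 0.03 against -0.05. With array medians subtracted, 14 were higher (23.0%) and 16 lower (26.2%), beside 11% and 34% of all genes on that scale. The subtraction lowers every difference by 0.17, though the median over all genes was already below 0 as deposited. It thus moves the median gene further from 0. The list and all genes were not matched in level, which limits the comparison of these shares. When genes below the lower quartile of mean level were left out, 2660 genes were higher, beside 2676 of 18820 as deposited. Fewer genes were tested after that filter, so the share higher over all genes was larger there than 14.2%. Of the pathway list, 17 were higher after the filter, beside 18 as deposited.

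Among ligands, Igf2, the fetal growth factor read from the paternal allele, gave 9.74 and 10.07 in KAP_KO, against 6.94 and 6.82 in KAP_WT. Both knockout arrays were far above both wild-type arrays, and Igf2 rose by 3.03 (SE 0.13, limma adjusted p = 4.59e-05), an 8.16-fold higher value. Igf1 read 4.00 and 4.13 in KAP_KO, against 3.54 and 3.53 in KAP_WT, and rose by 0.54 (limma adjusted p = 0.00701). Its mean level lay just below the lower quartile over all genes tested, so whether it was above background is not known. Without KAP_WT replicate 1 or 2 the difference was 0.54 and 0.53, with limma adjusted p = 0.0543 and 0.0585. The insulin gene Ins2 read 5.27 and 5.13 in KAP_KO, against 4.51 and 5.31 in KAP_WT, so that the groups overlapped (difference 0.29, limma adjusted p = 0.433). The wild-type arrays decide that value, since the difference was -0.11 without KAP_WT replicate 1 (limma adjusted p = 0.595) and 0.68 without KAP_WT replicate 2 (limma adjusted p = 0.0360).

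The other receptors did not move together. Insr, the insulin receptor gene, read 7.52 and 7.30 in KAP_KO, against 6.71 and 6.63 in KAP_WT, and rose by 0.74 (limma adjusted p = 0.00346). Igf2r, whose product takes up IGF2 and delivers it for degradation, read 8.21 and 7.99 in KAP_KO, against 8.55 and 8.59 in KAP_WT. Its difference of -0.47 passed (limma adjusted p = 0.0193), but not without KAP_KO replicate 2 (difference -0.36, limma adjusted p = 0.0896). Without KAP_WT replicate 1 or 2 its difference stayed near that value, at -0.49 and -0.45 (limma adjusted p = 0.0957 and 0.117). Insrr, the insulin receptor-related gene, had a difference of 0.01 (limma adjusted p = 0.936).

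Of 13 genes outside the family that encode an IGFBP domain, 4 rose and 2 fell, with a median difference of 0.00. These are 30.8% and 15.4%, beside 14.2% and 12.7% of all genes. The 2 that fell were Htra1 (-0.80) and Igfbpl1 (-0.32). Crim1, which encodes a membrane protein that binds bone morphogenetic proteins, read 7.86 and 8.24 in KAP_KO, against 6.01 and 5.77 in KAP_WT, and rose by 2.16 (limma adjusted p = 1.91e-04). The matricellular genes Ccn1, Ccn4 and Ccn2 rose by 1.78, 1.61 and 0.97 (limma adjusted p = 0.0100, 8.30e-04 and 0.0443). Ccn2 lost its call without KAP_KO replicate 1 (limma adjusted p = 0.0983), KAP_KO replicate 2 (0.0543) or KAP_WT replicate 2 (0.0913), where its difference was 0.87, 1.08 and 0.49.

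Among 7 genes for the serum carrier subunit, IGFBP proteases and their inhibitors, 2 rose and 1 fell. These are 28.6% and 14.3%, beside 14.2% and 12.7% of all genes. Pappa, which encodes the protease that cleaves Igfbp4, read 4.95 and 5.17 in KAP_KO, against 3.92 and 3.81 in KAP_WT, and rose by 1.20 (limma adjusted p = 5.70e-04). Stc2, which encodes an inhibitor of that protease, read 7.19 and 7.49 in KAP_KO, against 6.92 and 6.95 in KAP_WT. Its rise of 0.40 only just passed (limma adjusted p = 0.0491) and did not in 6 of the 11 alternatives run, among them array medians subtracted (0.155) and the arrays without KAP_KO replicate 2, KAP_WT replicate 1 or KAP_WT replicate 2 (0.217, 0.198 and 0.176, with differences of 0.25, 0.39 and 0.42). Igfals, the gene of the acid-labile subunit that joins Igfbp3 in serum, read 5.29 and 4.91 in KAP_KO, against 6.09 and 5.89 in KAP_WT. It fell by 0.89 (limma adjusted p = 0.00516), and by 0.79 without KAP_WT replicate 1 (limma adjusted p = 0.0643). Igfbp3 and Igfals thus differed in opposite directions.

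Below the receptor, 9 of 33 adaptor and PI3K-AKT genes rose and 4 fell, with a median of 0.07. These are 27.3% and 12.1%, beside 14.2% and 12.7% of all genes, so the share that fell was near that of all genes. The 4 that fell were Tsc2 (-0.51), Rheb (-0.44), Mtor (-0.35) and Foxo3 (-0.33). Grb10, which encodes an adaptor that binds and restrains the IGF1 and insulin receptors, read 8.72 and 8.90 in KAP_KO, against 5.66 and 5.89 in KAP_WT, and rose by 3.04 (limma adjusted p = 3.59e-05). The insulin receptor substrate gene Irs1 read 6.51 and 6.96 in KAP_KO, against 4.34 and 4.37 in KAP_WT, and rose by 2.38 (limma adjusted p = 1.35e-04). Irs2 rose by 1.71 and the kinase gene Akt1 by 0.96 (limma adjusted p = 1.64e-04 and 0.00113). Grb10, Irs1, Irs2 and Akt1 had the largest differences among the 33 genes. For the IGF2 mRNA-binding proteins, 0 of 2 passed in limma at an adjusted p of 0.05.

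**Figure D4:**
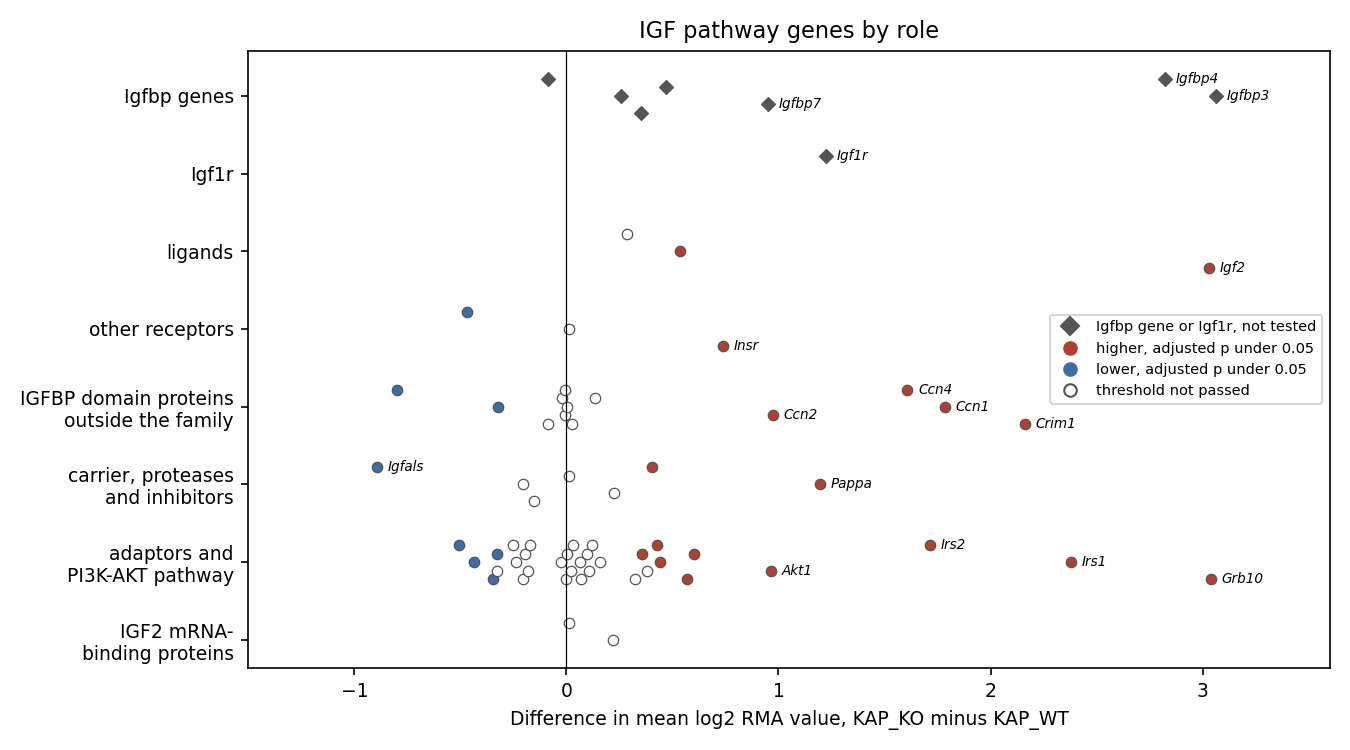
Difference in mean log2 RMA value, KAP_KO minus KAP_WT, of the Igfbp genes, Igf1r and 61 other IGF pathway genes in rows by role. Fill shows the limma call of the 61 genes, while the Igfbp genes and Igf1r are grey diamonds without a call. Igfbp3 (3.07), Igf2 (3.03) and Grb10 (3.04) lie furthest to the right, and most adaptor and PI3K-AKT genes lie near 0.

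The genes whose values lay closest to those of Igfbp3 over the 4 arrays, each centred on its own mean, were Gbp3, Grb10 and Vwa5a. Their distances were 0.08, 0.12 and 0.13 log2 units. Gbp3, an interferon-inducible GTPase gene, differed by 3.06 and Vwa5a by 2.96. With 4 arrays in 2 groups, such a distance reflects mostly the size of the difference.

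Markers of fibroblasts were also higher in KAP_KO. Of 14 tested markers 11 rose and 0 fell. Over all genes tested, 14.2% were higher and 12.7% lower, which the counts of each marker list stand beside. The summed linear values of the fibroblast markers were 3480 and 3870 in KAP_KO, against 1520 and 1310 in KAP_WT. Vim holds most of this sum, and without it, in a sum chosen after seeing the data, the other 13 markers gave 816 and 848 in KAP_KO, against 392 and 339 in KAP_WT. Such sums weight bright probe sets most. Col1a1 rose by 1.78, Dcn by 2.64 and Vim by 1.44 (limma adjusted p = 6.04e-04, 0.00101 and 3.34e-04). Embryonic stem cell markers summed to 13800 and 11900 in KAP_KO, against 17500 and 17100 in KAP_WT, with 7 of 10 lower and 0 higher. Among these, Pou5f1, also called Oct4, fell by 0.49 and stayed at 10.82 in KAP_KO, against 11.31 in KAP_WT (limma adjusted p = 0.00909). Without KAP_WT replicate 1 or 2 its difference was -0.51 and -0.46 (limma adjusted p = 0.0534 and 0.0683). Klf4 and Esrrb fell most in the list, with differences of -1.34 and -1.11 (limma adjusted p = 0.00906 and 0.00477). Pou5f1 thus kept a high array value in both groups, but 7 of the 10 markers were lower in KAP_KO. Extraembryonic endoderm markers, of which 5 of 8 rose and 0 fell, summed to 903 and 943 in KAP_KO, against 489 and 485 in KAP_WT. For 8 trophoblast markers, of which 3 rose and 1 fell, the sums were 674 and 685 in KAP_KO, against 668 and 660 in KAP_WT. That near-level sum holds opposite changes, since Krt7 rose by 2.00 and Cdx2 by 1.03 (limma adjusted p = 1.71e-04 and 8.85e-04) while Tfap2c fell by 0.81 (limma adjusted p = 0.00453). The mean log2 value of the list was 5.96 and 6.01 in KAP_KO, against 5.65 and 5.57 in KAP_WT. RMA values have no true zero, so no marker can be called absent. The part of feeder cells or other cell types in the values of the Igfbp genes was not tested.

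**Figure D5:**
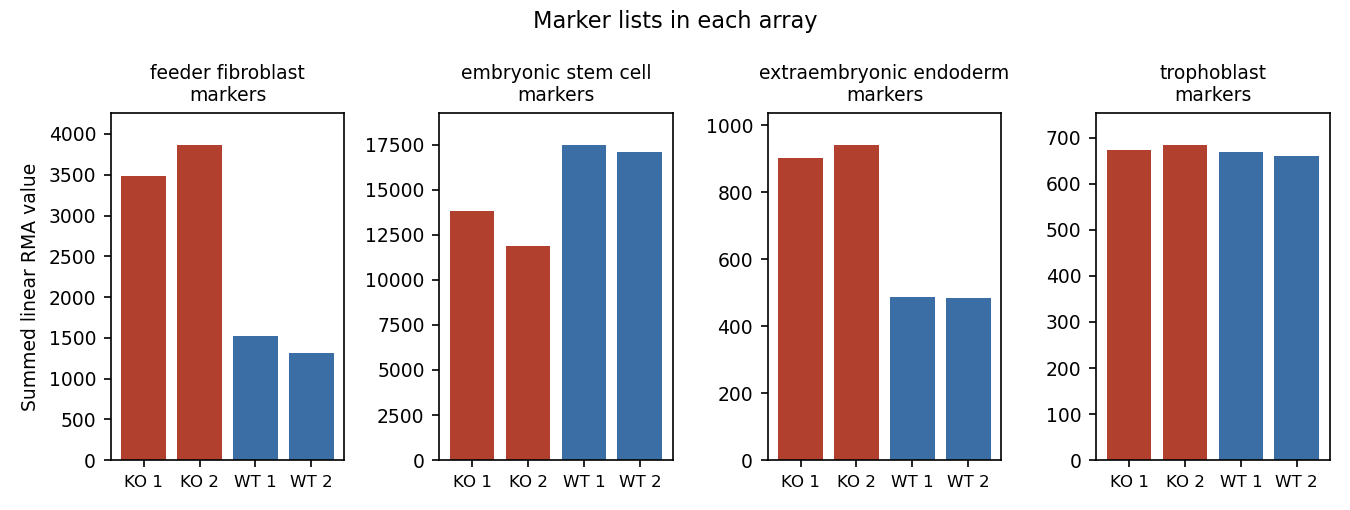
Summed linear RMA values of 4 marker lists on each array, KAP_KO (KO) left of KAP_WT (WT), with 1 bar per array from 0. Feeder fibroblast markers are at 3480 and 3870 in KAP_KO, against 1520 and 1310 in KAP_WT, while the trophoblast sum, in which Krt7 rose and Tfap2c fell, lies between 660 and 685 on all arrays.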

How the data were processed

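Log2 values of 4 Affymetrix Mouse Gene ST arrays were used as deposited by the authors. The submitters' processing notes name affy and RMA without a version. RMA models and removes background, brings arrays to a common distribution and combines probes into probe sets, which compresses small differences at low signal. Array medians over all 35556 probe sets lay between 4.75 and 4.77. Groups came from the sample titles. Platform annotation named 1 gene for 21218 probe sets, several for 1881 and none for 12457; the first kind was kept, 1 probe set per gene by highest mean, which left 18820 genes. KAP_KO was compared with KAP_WT with lmFit and eBayes of limma 3.58.1 (R 4.3.3, 2 residual and 4.70 prior degrees of freedom), two-sided, with Benjamini-Hochberg adjustment over all genes and a threshold of 0.05. Where the labels say biological replicate, they do not say whether these were separate cultures, so p-values cover only the spread between these samples. The fit was tested on simulated data.

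The 8 genes, the pathway and marker lists and the tests were chosen with earlier results of these data known. Named genes are the 8, all ligands and receptors, up to 4 genes with the largest change past the threshold in each other pathway list, Trim28, the neighbours of paired genes, the 3 genes most like Igfbp3 and up to 3 markers per list. The genes that fell in the lists of IGFBP domain proteins and of adaptor and PI3K-AKT genes were added after the results were seen. Promoter runs are RefSeq sequences of GRCm38.p6, and CpG counts were added after the differences were seen. The alternatives were an intensity trend or robust prior, the replicate block, a filter at the lower quartile of mean level, quantile normalization, subtraction of array medians, averaging the probe sets of a gene and each sample left out in turn. Another background correction needs scanner intensities and was not run.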

Additional observations from a re-analysis of the deposited data

How the results depend on the processing

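Under the 11 alternatives run, 6 Igfbp genes had a higher mean in KAP_KO in each, and none of the 8 genes changed sign where tested. Much of this was fixed in advance. The 2 priors, the replicate block, the filter and the averaging of probe sets leave the differences of these genes as they were. Only quantile normalization, subtraction of array medians and leaving out samples could change them. The count of the 8 past the threshold upwards was 5 as deposited and 5 with the replicate block, beside 14.2% of all genes as deposited. It was 6 with an intensity trend and after quantile normalization, where Igfbp2 entered. Since the 8 were picked on this contrast, nothing is read from these counts. Without single samples the difference of Igfbp5 ranged from 0.43 to 0.50 and that of Igfbp7 from 0.63 to 1.27. The median difference of the 8 genes, 0.71, was 0.54 with array medians subtracted. It was 0.95 with genes below the lower quartile left out, which removes Igfbp1. Without single samples this median ranged from 0.54 to 0.88. The count of 5071 called genes was 8457 with array medians subtracted, of which 24.4% were higher against 52.8% as deposited, and 6392 were lower. Leaving out single samples gave 2430 to 4350 calls, 1531 to 2405 higher and 899 to 1945 lower, fewest without KAP_WT replicate 2 (2430) or 1 (2647); without KAP_KO replicate 2, 1492 were lower. For the pathway list, 11 to 17 were higher and 2 to 6 lower without single samples, with 11 higher and 3 lower without KAP_WT replicate 2, 2 lower without KAP_WT replicate 1 and 3 lower without KAP_KO replicate 2. With array medians subtracted 16 were lower. The replicate block gave 5093 calls, 17 pathway genes higher and 7 lower, and changed the call of 0 of 34 tested genes outside the 8. These 34 include the extraembryonic endoderm markers Gata4 and Dab2, not given above. Tfap2c, Htra1, Igfbpl1, Tsc2, Rheb, Mtor and Foxo3 are not among them, and their calls were not followed through the alternatives. The same-numbered arrays' deviations from their group means correlated at 0.15, but with 2 pairs the numbers are not taken to pair the samples. Of those 34 genes, 9 changed their call in some alternative; beside those given above, these were Esrrb and Klf4 without either KAP_WT replicate. The causes were not tested. Signal over background is unknown, which limits what can be said of Igfbp1 and Igf1.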
